A study of Mus musculus with 18 samples.

Results

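The tumours described here arose in mice with a liver-specific knockout of Ftcd (LKO) after a single early dose of the carcinogen diethylnitrosamine (DEN), and they were compared with nontumour liver of the same genotype and treatment. The comparison uses 6 of the 18 liver libraries of the study, 3 labelled tumour and 3 labelled nontumour. All 6 come from LKO mice injected with DEN at 20 mg/kg on postnatal day 14, with tissue taken 12 months later, so the contrast holds no wild-type or untreated liver. Genes were taken where at least 3 of the 6 libraries held 1 TPM (the share of transcripts, scaled to a total of 1000000 per library) or more, which left 11706 of the 58126 genes in the table. A further 12 libraries (untreated wild type, untreated LKO and DEN-treated wild-type nontumour liver) served to estimate the spread between libraries and to place single genes. The untreated mice were 12 months old. The DEN-treated wild types had the same dose, injection day and time of tissue collection as the 6 libraries. The labels give neither the promoter that drove the deletion nor the size or grade of each tumour, and they do not say whether the replicates are separate animals or whether a tumour and a nontumour library of the same number share a mouse. The p-values of genes below therefore set a difference of group means against the spread between libraries, part of which may be technical. For each gene that spread was pooled over all 18 libraries and taken as equal in all groups. Tumours that could be seen were cut out of the liver and frozen. Genes named outside the rules of choice given under the processing, among them Cdk1, Mcm6, Pcna, Cd68, C1qa and most zonation genes, were picked after their values had been seen.

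DEN is converted by cytochrome P450 enzymes of hepatocytes to an alkylating agent, and when it is given to infant mice, whose hepatocytes still divide, liver tumours appear within months. Liver tumours of mice are known to differ in how they keep hepatocyte zonation, the division of labour by which cells near the central vein, under Wnt signalling, make glutamine and carry drug-metabolising P450 enzymes, while cells near the portal vein run the urea cycle, gluconeogenesis and amino acid breakdown. FTCD itself ends histidine breakdown by passing the formimino group to tetrahydrofolate, and Hal, which opens that route, is a periportal gene.

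Ftcd was low in all 6 libraries, at 0.34, 1.01 and 0.85 TPM in nontumour liver 1 to 3 and at 0.1, 0.15 and 1.75 TPM in tumour 1 to 3. It stayed below the level required for testing. Among libraries labelled wild type, untreated replicate 3 and DEN-treated replicates 1 and 2 had only 1.77, 2.36 and 2.5 TPM of Ftcd. The rest had 61.2 to 106 TPM. All were kept by label in the fit and in the wild-type ranges below. Nontumour liver 1 and tumour 1 carried Xist and no Y-linked transcripts (XX) and the other 4 libraries were XY, so sex was balanced between the groups. Mitochondrially encoded genes took 36.9, 19.2 and 17.9% of TPM in nontumour liver and 31.4, 16.4 and 10.5% in tumours (2-sided exact permutation p = 0.5, where 3 against 3 cannot go below 0.1). TPM corrects for gene length and does not keep read numbers, which leaves the depth of every library unknown. The log2(TPM + 1) scale used for fold changes understates differences of low genes. The median of all tested genes also lay apart between libraries, at -0.3, 0.29 and 0.76 log2 units from the nontumour mean in tumour 1, 2 and 3. List values below are therefore also given relative to the median of all tested genes.

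The 3 tumours did not form a group. Across the tested genes, tumour 1 resembled nontumour liver 1 (Pearson r = 0.934 on log2(TPM + 1), a description over genes, which are not replicates) more than any nontumour library resembled another (0.913 to 0.915). Its correlation with tumour 3 was 0.741, the lowest of the 15 pairs, and that between tumours 1 and 2 was 0.81. Tumour 1 scored -73.3 beside nontumour liver 1 at -63.7, and tumour 3 at 112.2, on a first principal component that took up 58.4% of the variance. The second component, with 15.8%, set tumour 2 (62.9) against tumour 3 (-42.1). Tumours thus lay at both ends of the nontumour libraries.

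**Figure D1:**
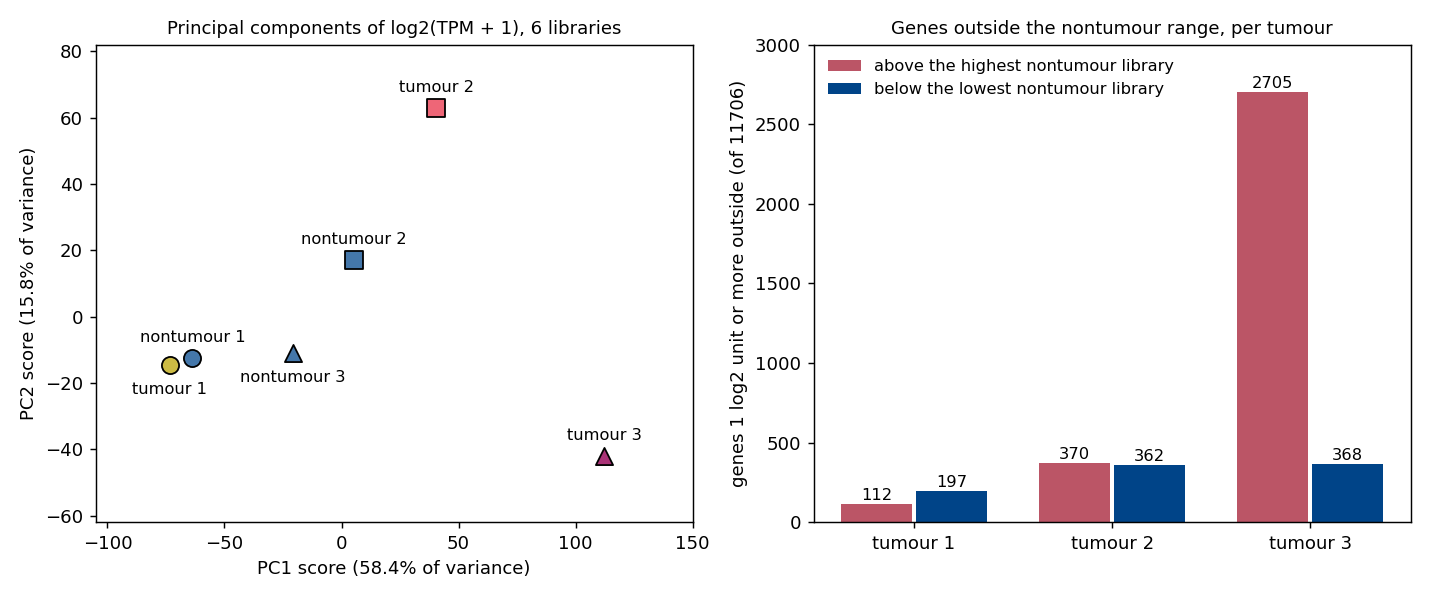
Left, scores of the 6 libraries on the first and second principal components of log2(TPM + 1) over 11706 genes (blue, nontumour; other colours, tumours; the marker shape gives the replicate number). Right, number of genes whose level in a tumour lay 1 log2 unit or more above the highest (red) or below the lowest (blue) nontumour library; tumour 3 has 2705 above, against 112 and 370 in tumours 1 and 2.

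With limma (a linear model of all genes at once) over all 11706 genes, 0 genes (0%) passed an adjusted p under 0.05 (called, below), and at an unadjusted p under 0.05 there were 151 higher in tumour (1.29%) and 143 lower (1.22%). The lowest adjusted p was 0.0959, shared by Gm3788 and the unannotated transcript MSTRG.1385. Among the 6 libraries both reached 1 TPM in nontumour liver only, so the filter fixed in advance that they would not overlap. All 3 tumours lay above all 3 nontumour libraries in 196 genes (1.67%) and below them in 205 (1.75%). Each tumour was also set against the nontumour range, with a margin of 1 log2 unit that those counts did not require. Tumour 1 lay 1 log2 unit or more above the nontumour range in 112 genes (0.957%) and below it in 197 (1.68%). The shares were 370 (3.16%) and 362 (3.09%) for tumour 2, and 2705 (23.1%) and 368 (3.14%) for tumour 3. Without tumour 1, limma called 43 genes, 35 higher and 8 lower, and without nontumour liver 2 it called 2; leaving out any of the other 4 libraries gave 0. Of 66 named genes that were tested, the fold change moved by over 1.5 times in 44 when some single library was left out, in 32 without tumour 3, in 18 without tumour 1 and in 14 without tumour 2. Such values stand beside many of the genes below.

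None was called, but the 10 genes of smallest p on the tumour-high side, taken among genes with a regular symbol (no predicted gene or clone name), a mean of 5 TPM or more and no overlap, included 4 of cell division. These and their group are described first. Birc5 (survivin, a subunit of the chromosomal passenger complex; mm10 chromosome 11, 117849251 to 117855743) had 0.56, 2.75 and 1.67 TPM in nontumour liver 1 to 3 and 3.34, 4.23 and 11.8 TPM in tumour 1 to 3. The tumours lay above every nontumour library, with a log2 fold change of 1.40 ± 0.43 (SE; limma adjusted p = 0.927). Ube2c, the ubiquitin-conjugating enzyme of the anaphase-promoting complex, had 1.95, 6.09 and 5.16 against 9.47, 7.75 and 37.2 TPM (1.59 ± 0.53, adjusted p = 0.927). Cdc20, an activator of that complex, had 0.74, 2.73 and 2.54 against 5.06, 2.82 and 22.6 TPM, so that tumour 2 was barely above nontumour liver 2. Knstrn, a kinetochore protein of the mitotic spindle, had 0.42, 1.3 and 0.92 against 1.57, 2.17 and 18.6 TPM. In all 4 genes tumour 3 was the highest library, and without it the fold changes were 0.93 for Birc5, 0.92 for Ube2c, 0.76 for Cdc20 and 0.63 for Knstrn. In DEN-treated wild-type nontumour liver Birc5 reached 2.6 and Ube2c 3.74 TPM.

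Of 40 cell-division genes, 22 were expressed highly enough to test. All 22 had a fold change above 0, against 71.2% of all tested genes, and 3 of them (Birc5, Cdc20 and Ube2c) did not overlap between the groups, against the 1.67% given above. The list's median fold change was 1.12, or 0.86 above that of all tested genes. By tumour, the list in tumour 3 lay 2.01 log2 units above the nontumour mean relative to all genes and 19 of the 22 members were 1 unit or more above the nontumour range, beside 23.1% of all genes; in tumours 1 and 2 the list lay 0.29 and 0.22 above and 0 members passed that mark. Without tumour 3 the relative median was 0.28. Genes of replication and of mitosis shared this pattern in the examples that follow. Mcm6, a subunit of the replicative helicase, had 0.2, 1.14 and 1.07 TPM in nontumour liver, 0.36 and 1.17 in tumours 1 and 2 and 24.2 in tumour 3, and Pcna, the sliding clamp, had 3.92, 7.69 and 4.94 against 2.35, 10.9 and 53 TPM. Cdk1, the mitotic kinase, had 0.66, 2.17 and 1.25 against 1.84, 4.92 and 33.6 TPM. Mki67, too low to test, had 0.09, 0.63 and 2.4 TPM in tumours 1 to 3 and at most 0.55 TPM in nontumour liver.

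The start regions of these genes are shown because mitotic genes are known to share a pair of short elements, CCAAT and the cell-cycle homology region (CHR), searched here as TTTGAA. Both were searched on both strands of windows of 300 bases that span the start (RefSeq, GRCm38.p6; first window listed per gene). Of the tested members with a window, 20 in all, 8 (40%) held both motifs: Ccnb2, Cdc20, Cdk1, Hmgb2, Mcm2, Plk1, Top2a and Ube2c. Among all 8343 tested genes with a window the share was 4.82%, and among all 27025 windows 7.12%. A match is a description of these letters, not a measured binding site. The window of Birc5 held no match to TTTGAA or CCAAT. For Ccnb2 (cyclin B2), Cdc20 and Ube2c, capitals mark CCAAT or TTTGAA, or their reverse complements, and lower case the rest.
Ccnb2 (chr9:70421505-70421804, minus strand): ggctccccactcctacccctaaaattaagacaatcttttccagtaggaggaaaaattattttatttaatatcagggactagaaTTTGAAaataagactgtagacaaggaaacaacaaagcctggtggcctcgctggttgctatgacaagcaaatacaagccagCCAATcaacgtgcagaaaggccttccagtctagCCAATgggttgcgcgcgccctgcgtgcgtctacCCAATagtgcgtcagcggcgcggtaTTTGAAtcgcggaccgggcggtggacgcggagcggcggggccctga
Cdc20 (chr4:118437294-118437593, minus strand): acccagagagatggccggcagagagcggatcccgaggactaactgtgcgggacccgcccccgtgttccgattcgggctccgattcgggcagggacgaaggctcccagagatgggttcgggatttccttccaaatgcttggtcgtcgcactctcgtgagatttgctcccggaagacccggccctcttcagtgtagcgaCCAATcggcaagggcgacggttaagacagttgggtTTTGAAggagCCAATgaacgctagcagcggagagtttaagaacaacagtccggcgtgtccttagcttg
Ube2c (chr2:164769679-164769978, plus strand): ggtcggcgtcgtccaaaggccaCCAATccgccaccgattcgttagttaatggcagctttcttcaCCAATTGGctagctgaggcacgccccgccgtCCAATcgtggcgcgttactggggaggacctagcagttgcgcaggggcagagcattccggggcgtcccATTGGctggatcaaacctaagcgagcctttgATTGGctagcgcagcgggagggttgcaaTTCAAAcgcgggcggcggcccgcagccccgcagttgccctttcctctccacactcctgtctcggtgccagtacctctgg
In Cdc20 the single TTTGAA began 18 bases before the start, between CCAAT matches beginning 53 and 8 bases before it, and in Ube2c the TTTGAA match on the opposite strand began 29 bases before it.

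The other 6 leading genes on the tumour-high side were of mixed function. Lgals1 (galectin-1, a secreted galactoside-binding lectin; mm10 chromosome 15, 78926725 to 78930465) had 34, 84.8 and 54.3 TPM in nontumour liver and 123, 101 and 1295 TPM in tumours (2.21 ± 0.72 on the log2 scale, adjusted p = 0.927; 1.03 without tumour 3). Untreated LKO liver reached 167 TPM, above tumours 1 and 2. Cln6, an endoplasmic reticulum protein whose loss causes a lysosomal storage disease, had 0.88, 1.65 and 1.31 against 2.89, 4.13 and 8.49 TPM (1.35 ± 0.35, adjusted p = 0.892), and the 12 other libraries of the study reached 1.89 TPM at most. Rab34, a small GTPase of cilium formation, had 0.64, 2.74 and 2.92 against 3.8, 4.99 and 16.5 TPM. Ccdc85b and Ssc4d reached 7.32 and 13.8 TPM in tumour 3. The tenth, Trib3, is described with the stress genes below. Hormad2, a protein of meiotic chromosomes that is otherwise a germ-cell gene, was picked out after its values were seen. Hormad2 had 0.54, 1.07 and 0.17 TPM in nontumour liver and 4.77, 5.92 and 2.09 TPM in tumours (1.68 ± 0.33, adjusted p = 0.192), and at most 0.86 TPM in the other 12 libraries.

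**Figure D2:**
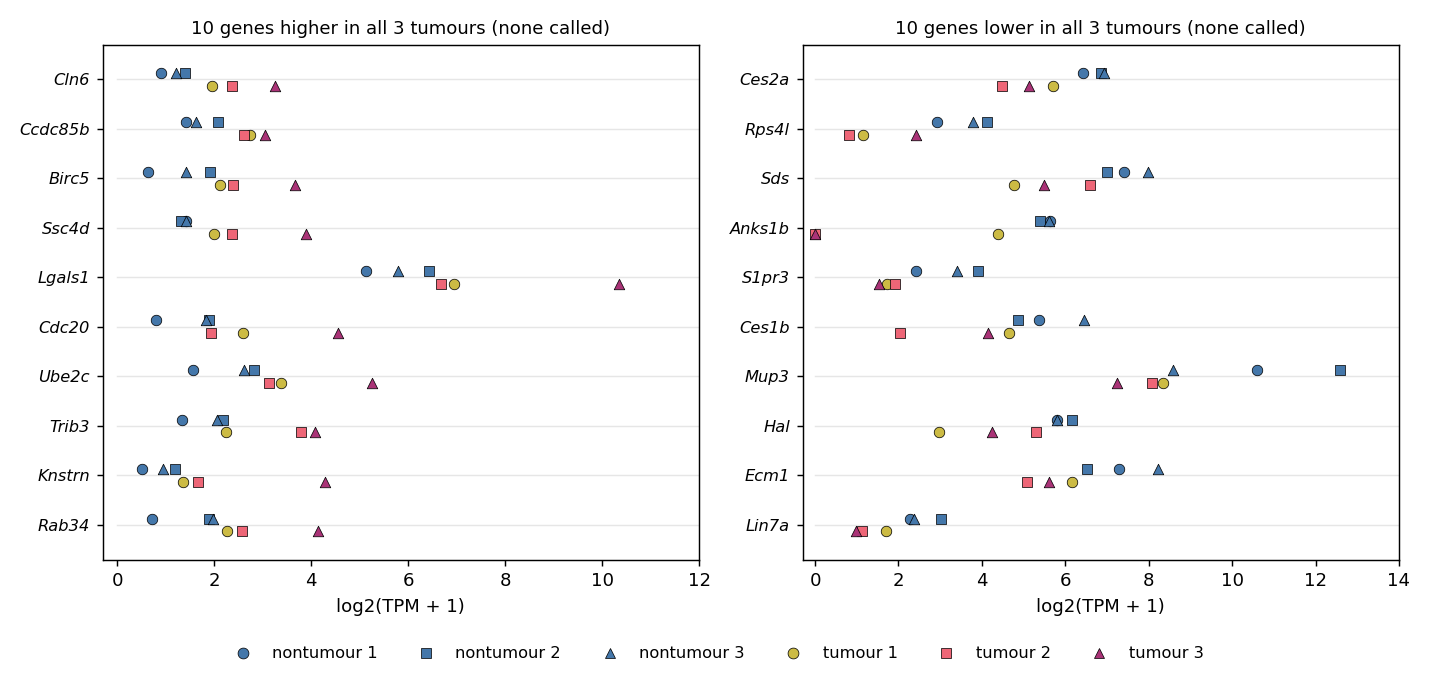
Level, as log2(TPM + 1), of the 10 genes of regular symbol and smallest p on each side among those whose groups do not overlap and whose higher group averages 5 TPM or more (blue, nontumour; other colours, tumours; shapes give the replicate number). Each gene's tumours lie wholly to the right (left panel) or to the left (right panel) of its nontumour libraries, none was called, and tumour 3 is the highest library for all 10 genes on the left.

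The 10 genes on the tumour-low side were also of mixed function, and Sds and Hal among them break down amino acids. Sds (serine dehydratase; mm10 chromosome 5, 120476526 to 120483932) had 169, 128 and 252 TPM in nontumour liver and 26.5, 95.8 and 43.7 TPM in tumours, a log2 fold change of -1.85 ± 0.55 (adjusted p = 0.927). Hal (histidine ammonia-lyase; mm10 chromosome 10, 93488768 to 93519304) had 54.7, 70.9 and 55 against 6.84, 38.1 and 17.9 TPM (-1.76 ± 0.56, adjusted p = 0.927; -1.16 without tumour 1). Both were lowest in tumour 1, although that tumour was the library closest to nontumour liver over all genes. Reads of Sds can include those of Plbd2, which overlaps it on the other strand, since the strand setting of the counting is not given in the sources used here.

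The gene of smallest p was Ces2a, a carboxylesterase, an enzyme class that hydrolyses drugs and lipids. Ces2a had 85.2, 114 and 120 TPM in nontumour liver and 50.8, 21.3 and 33.9 TPM in tumours (-1.63 ± 0.43, adjusted p = 0.918), and Ces1b had 40.1, 28 and 86.1 against 24, 3.07 and 16.7 TPM (-1.95 ± 0.59, and -1.16 without tumour 2). Both are members of families of close copies, among which reads can be shared. Mup3, a major urinary protein of another such family, had 1542, 6132 and 381 against 323, 271 and 149 TPM (-2.70 ± 0.84, and -1.7 without nontumour liver 2). Ecm1, an extracellular matrix protein that liver also secretes, had 155, 91.5 and 299 against 70.6, 33.1 and 47.8 TPM. S1pr3, a sphingosine-1-phosphate receptor, had 4.33, 13.9 and 9.55 against 2.32, 2.76 and 1.87 TPM, and Lin7a, a scaffold protein of cell polarity, reached 2.24 TPM at most in tumours and 7.17 TPM in nontumour liver.

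The 2 remaining genes showed sharper patterns. Anks1b, a scaffold gene best known from neurons (mm10 chromosome 10, 89873509 to 90973300), had 48.6, 41.4 and 47.8 TPM in nontumour liver and 19.9 TPM in tumour 1, and was listed at 0 in tumours 2 and 3 (-4.09 ± 1.22, adjusted p = 0.927). The gene spans 7 other annotated genes. It ranged from 0 to 11.6 TPM in DEN-treated wild-type liver and from 6.38 to 99 TPM in untreated LKO liver, so the level of tumours 2 and 3 was also found among the wild-type libraries. Rps4l (a gene annotated as a transcribed processed pseudogene of a ribosomal protein gene; mm10 chromosome 6, 148354656 to 148355598) had 6.56, 16.5 and 12.7 against 1.23, 0.77 and 4.33 TPM, with a log2 fold change of -2.14 ± 0.59 (adjusted p = 0.927). It was called with median-ratio scaling (-2.39, adjusted p = 0.0317) and with quantile normalization (-2.57, adjusted p = 0.0191). Reads of its parent gene and of copies could be placed on it.

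Outside the rule, chosen after their values were seen, were the genes with the smallest p. Gm3788, a processed pseudogene (mm10 chromosome 3, 86672033 to 86672168), had 36.4, 13.4 and 44 TPM in nontumour liver and was listed at 0 in all 3 tumours (adjusted p = 0.0959). It was also listed at 0 in untreated LKO liver and lies within Lrba on the other strand, and its short length makes its TPM uncertain. Limma called Gm3788 with only the 6 libraries (adjusted p = 0.043) and with a block for replicate number over them (0.0421). It was also called without tumour 1 (0.0419) and without the wild-type libraries low in Ftcd (2.39e-05), and in no other setting. Each of these settings kept the filter of 1 TPM, which Gm3788 passed through nontumour liver only, so its lack of overlap was fixed in advance. Grm8, a metabotropic glutamate receptor gene, had 1.67, 3.32 and 3.31 TPM in nontumour liver and 0, 0.11 and 0.13 TPM in tumours (-1.77 ± 0.34, adjusted p = 0.192). Grm8 too passed the filter through nontumour liver only, which fixed in advance that its groups would not overlap. Untreated LKO liver had 0.68 to 4.43 TPM of Grm8 and the 9 libraries labelled wild type at most 0.11 TPM, the level of the tumours. Insyn1, a protein of inhibitory synapses (mm10 chromosome 9, 58488603 to 58499780), had 0.08, 6.14 and 0.48 against 4.28, 32.2 and 33.9 TPM (3.02 ± 0.65, adjusted p = 0.388). Its groups overlapped, since nontumour liver 2 lay above tumour 1, and limma called it when XX or XY status was in the model (adjusted p = 0.0364), without nontumour liver 2 (0.0383) and without tumour 1 (0.0149).

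Zonation genes set the 3 tumours apart. Glul (glutamine synthetase, made by the innermost pericentral hepatocytes; mm10 chromosome 1, 153899944 to 153909723) had 156, 105 and 85.9 TPM in nontumour liver, 360 TPM in tumour 1, 6.82 TPM in tumour 2 and 110 TPM in tumour 3. Tumour 1 lay above and tumour 2 far below the nontumour range, while tumour 3 lay within it. The comparison of the groups gave no call (-0.73 ± 0.97, adjusted p = 0.927) and its sign turned, to 0.83, without tumour 2. Oat, ornithine aminotransferase of the same zone, followed with 120, 49.4 and 69.5 TPM in nontumour liver and 299, 3.72 and 93.6 TPM in tumours 1 to 3. Cyp2e1, a pericentral P450 that activates DEN, had 489, 382 and 583 TPM in nontumour liver, 563 and 38.6 TPM in tumours 1 and 2 and 1627 TPM in tumour 3; its fold change of -0.53 became 1.0 without tumour 2.

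Over the whole list of Wnt and pericentral genes, 22 of 26 were tested. Relative to all genes, the list lay 0.93 log2 units above the nontumour mean in tumour 1, -1.16 in tumour 2 and 0 in tumour 3, and the nontumour libraries themselves ranged from -0.53 to 0.48. In tumour 2, 10 members lay 1 unit or more below the nontumour range and 0 above, and in tumour 1, 4 lay above and 0 below. Tumour 3 had 10 above and 1 below, beside the 23.1% above for all genes. The feedback inhibitors Notum, Znrf3, Axin2 and Rnf43, which Wnt signalling itself induces, all lay above the nontumour range in tumour 1. In tumour 2 all but Rnf43 lay below it. In tumour 3 Znrf3 lay below it and the others above. Notum, a secreted Wnt deacylase, had 6.15 to 8.97 TPM in nontumour liver and 15.4, 1.64 and 12.8 TPM in tumours 1 to 3. Znrf3, a ubiquitin ligase that removes Wnt receptors, had 2.44 to 5.97 against 12.6, 1.82 and 1.77 TPM, and Axin2, too low to test, had at most 0.56 TPM in nontumour liver and 1.22, 0.05 and 1.99 TPM in tumours. Rnf43, the partner of Znrf3, had 0.58, 0.76 and 1.08 against 1.34, 1.29 and 4.15 TPM, and was the member of the list without overlap. Lgr5 reached 0.75 TPM at most.

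Periportal genes lay low in tumour 1 above all. Of the 27 periportal genes, all tested, 22 had a fold change below 0 against 28.8% of all genes, and 5 (Sds, Hal, Etnppl, Igf1 and Pigr) did not overlap between groups, beside 1.75% of all genes. The list's relative median was -0.80, between -0.6 and -1.15 when any single library was left out. By tumour it lay -1.40, -0.34 and -0.97 log2 units from the nontumour mean relative to all genes. In tumour 1, 13 of the 27 lay 1 unit or more below the nontumour range, beside the 1.68% of all genes, and in tumours 2 and 3 it was 3 each. Cps1, which opens the urea cycle, had 44.7, 59.3 and 68.7 TPM in nontumour liver and 14.4, 54.7 and 33.4 TPM in tumours, and Gls2, the glutaminase that feeds it with ammonia, had 115, 194 and 175 against 22.5, 229 and 48.9 TPM. Arg1, its last enzyme, had 427, 709 and 1214 against 165, 991 and 774 TPM, with only tumour 1 below the nontumour range. Cdh1 (E-cadherin) had 9.6, 68.1 and 30 TPM in nontumour liver and 1.18 TPM in tumour 1, with 59.3 and 24.8 TPM in tumours 2 and 3. In the other 12 libraries Cdh1 lay between 0.96 and 10.4 TPM.

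**Figure D3:**
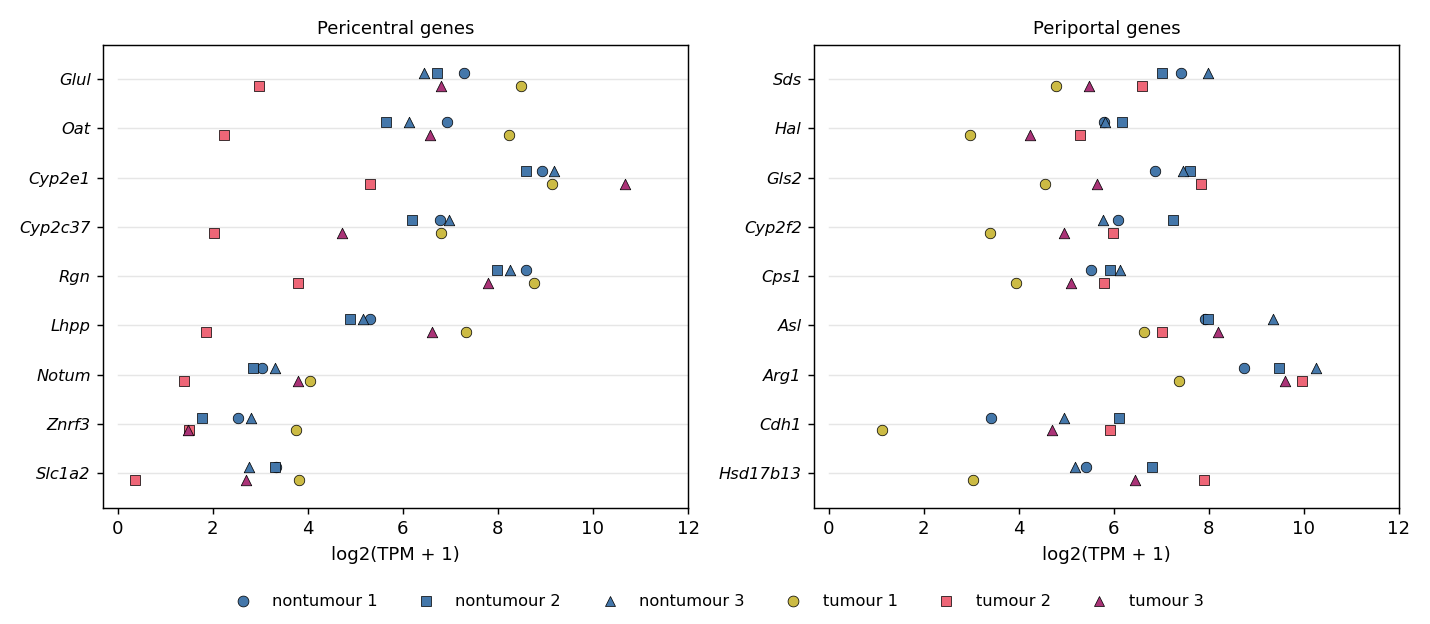
Level, as log2(TPM + 1), of 9 pericentral (left) and 9 periportal (right) genes of the lists in the 6 libraries, shown after their values were seen (blue, nontumour; other colours, tumours; shapes give the replicate number). Tumour 2 is the lowest library for 8 of the pericentral genes and level with tumour 3 for Znrf3, and tumour 1 is the lowest for all 9 periportal genes.

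The P450 and other phase I genes followed the pericentral ones in tumour 2. Of 43 tested, 12 lay 1 unit or more below the nontumour range in tumour 2, beside 3.09% of all genes, and the list lay -1.28 log2 units from the nontumour mean relative to all genes, against -0.10 and 0.16 in tumours 1 and 3. Cyp2c54, a P450 of drug and arachidonic acid oxidation, had 151, 105 and 198 TPM in nontumour liver and 252, 1.52 and 20.7 TPM in tumours 1 to 3. Cyp2c37 of the same family had 110, 71.7 and 125 against 110, 3.06 and 25.3 TPM. Cyp7a1, the rate-limiting enzyme of bile acid synthesis, had 6.02, 4.79 and 11.4 against 3.58, 0.2 and 8.69 TPM (-1.08 ± 0.92, adjusted p = 0.927; -0.26 without tumour 2). Nnmt, which methylates nicotinamide with S-adenosylmethionine, had 79.3, 52.9 and 105 against 38.9, 2.32 and 26.3 TPM (-2.33 ± 0.80, adjusted p = 0.927; -1.22 without tumour 2), again lowest in tumour 2. Sex-biased genes varied widely within each group. The female-biased list (23 tested) ranged from -1.14 to 1.33 over nontumour libraries, highest in the XX library, and was 0.83 in the XX tumour 1, -2.15 in tumour 2 and -0.53 in tumour 3. The male-biased list (21 tested) lay at -0.15, 1.74 and -0.82 in nontumour liver 1 to 3 and at -0.72, -1.28 and -0.99 in tumours, so that nontumour liver 3 was within the range of the tumours.

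As a list, genes of the integrated stress response lay high in tumours 2 and 3, though single members differed. Trib3, a pseudokinase induced by ATF4, had 1.51, 3.51 and 3.17 TPM in nontumour liver and 3.75, 12.8 and 15.8 TPM in tumours, without overlap (1.51 ± 0.51, adjusted p = 0.927). Nupr1, a small stress-induced chromatin protein, had 3.36, 11.6 and 2.06 against 14.6, 10.9 and 117 TPM (2.34 ± 0.66, adjusted p = 0.927). Fgf21, a hormone that liver releases in fasting and amino acid shortage, had 1.82, 8.49 and 2.88 against 13.1, 6.18 and 69.8 TPM (2.03 ± 0.67, adjusted p = 0.927). In both genes tumour 2 lay below nontumour liver 2 and below tumour 1, and without tumour 3 the fold changes were 1.3 for Nupr1 and 1.1 for Fgf21. Across 26 tested genes of endoplasmic reticulum stress and ATF4, 23 had a fold change above 0, beside 71.2% of all genes. The 2 without overlap on the high side, where 1.67% of all genes lay, were Trib3 and Mthfd2, the mitochondrial folate enzyme that many tumours make. The list's relative median was 0.54, at -0.20, 0.80 and 0.75 in tumours 1 to 3, and was 0.18 without tumour 2. In tumour 2, 8 of 26 members lay 1 unit or more above the nontumour range, beside 3.16% of all genes, and in tumour 3 it was 10, beside 23.1%.

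Start regions of these 3 genes are shown because ATF4 binds composite elements (CARE), searched as TGATGNAA on both strands in the same windows. Of 25 list members with a window, 6 (24%) held a match: Atf3, Chac1, Fgf21, Herpud1, Nupr1 and Trib3. The share was 2.33% among tested genes and 4.06% among all windows. Capitals mark the match, which lies on the opposite strand in all 3.
Trib3 (chr2:152344011-152344310, minus strand): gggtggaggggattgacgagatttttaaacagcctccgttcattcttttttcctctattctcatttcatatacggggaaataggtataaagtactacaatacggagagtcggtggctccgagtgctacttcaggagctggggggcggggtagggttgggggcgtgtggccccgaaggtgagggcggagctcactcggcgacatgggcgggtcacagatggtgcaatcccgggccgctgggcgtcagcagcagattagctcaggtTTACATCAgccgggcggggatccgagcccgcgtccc
Nupr1 (chr7:126625421-126625720, minus strand): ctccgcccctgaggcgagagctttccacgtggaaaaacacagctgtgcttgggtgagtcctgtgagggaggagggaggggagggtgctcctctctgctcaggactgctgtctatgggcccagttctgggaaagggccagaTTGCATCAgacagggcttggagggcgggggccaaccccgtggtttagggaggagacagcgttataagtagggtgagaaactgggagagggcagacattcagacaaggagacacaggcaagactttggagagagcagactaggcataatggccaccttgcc
Fgf21 (chr7:45615441-45615740, minus strand): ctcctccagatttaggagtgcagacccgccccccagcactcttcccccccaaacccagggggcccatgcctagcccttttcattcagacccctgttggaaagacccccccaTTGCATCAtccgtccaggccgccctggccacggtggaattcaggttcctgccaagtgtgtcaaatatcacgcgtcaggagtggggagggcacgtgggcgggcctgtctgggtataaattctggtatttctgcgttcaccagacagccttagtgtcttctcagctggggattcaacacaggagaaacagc
The match began 139 bases before the start in Fgf21, 110 bases before it in Nupr1 and 15 bases after it in Trib3.

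Lipid droplet genes were high in tumour 3. All 18 tested members of the PPARγ and lipid droplet list had a fold change above 0, beside 71.2% of all genes, although 0 were without overlap. The relative median was 0.57 and 0.25 without tumour 3, and the list lay at 0.44, -0.03 and 1.47 in tumours 1 to 3. Cidec, which fuses lipid droplets, had 2.13, 16.9 and 1.84 TPM in nontumour liver and 17.7, 10.3 and 144 TPM in tumours (2.53 ± 0.90, adjusted p = 0.927; 1.42 without tumour 3). Fabp4, a fatty acid carrier of adipocytes and macrophages, had 4.94, 11.1 and 6.61 against 3.06, 47.6 and 362 TPM (2.35 ± 1.00; 0.78 without tumour 3 and 4.02 without tumour 1). Plin2, the droplet coat protein of hepatocytes, had 34.3, 51.8 and 18.5 against 46.3, 84.4 and 217 TPM (1.53 ± 0.80, and 0.94 without tumour 3). In DEN-treated wild-type nontumour liver Plin2 reached 325 TPM, above all 3 tumours. Among the 12 other libraries, Cidec and Fabp4 were highest in untreated LKO liver, at 67.3 and 12 TPM. Of 31 PPARα targets, 25 had a fold change above 0, beside 71.2% of all genes, and 4 did not overlap on the high side, beside 1.67%. Bdh1, a ketone body enzyme, was among them, with 40.3, 51.7 and 17.6 TPM in nontumour liver and 67.5, 63.6 and 147 TPM in tumours. Vnn1, a pantetheinase, was another, with 15.1, 16.1 and 2.97 against 23.3, 22.1 and 50.5 TPM. The margins in tumours 1 and 2 were small for both. DEN-treated wild-type nontumour liver reached 236 TPM of Bdh1 and 65.6 TPM of Vnn1, above all 3 tumours. Fasn, the fatty acid synthase, had 38.5, 79.5 and 142 against 25.8, 146 and 392 TPM (0.59 ± 1.19), a value that turned to -0.29 without tumour 3.

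NRF2 targets and glycolysis separated tumour 3 as well. Of 33 NRF2 targets, 28 had a fold change above 0, beside 71.2% of all genes. The member without overlap on the high side, where 1.67% of all genes lay, was Gstm4, a glutathione transferase, with 12.5, 22.9 and 21.2 TPM in nontumour liver and 25.9, 60.9 and 111 TPM in tumours. The list lay at -0.24, 0.37 and 1.2 in tumours 1 to 3, and 20 members lay 1 unit or more above the nontumour range in tumour 3, beside 23.1% of all genes. Nqo1, the classical target, had 3.91, 8.77 and 24 against 6.31, 27.1 and 40.6 TPM (0.94 ± 0.67, adjusted p = 0.927; 0.39 to 1.68 without single libraries). Among 23 glycolysis genes, 12 lay that far above in tumour 3, beside the same 23.1%, and the list lay at -0.28, 0.22 and 1.2. Hk2, the hexokinase that adult hepatocytes hardly make, had 0.57 to 1.99 TPM in nontumour liver, 1.64 and 1.07 TPM in tumours 1 and 2 and 24.6 TPM in tumour 3, and Pkm had 3.4 to 13.7 against 3.02, 12.4 and 72.7 TPM.

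Targets of growth and damage signalling were less uniform. All 11 tested genes induced by MAPK signalling had a fold change above 0, beside 71.2% of all genes, but their relative median was 0.10 and 0 were without overlap. Dusp6, the phosphatase that limits ERK, had 5.92, 9.52 and 6.96 TPM in nontumour liver and 7.06, 27.3 and 19.9 TPM in tumours (1.01 ± 0.60, adjusted p = 0.927; 0.64 without tumour 2). Ccnd1 had 1.94, 4.44 and 2.69 against 2.4, 7.2 and 9.15 TPM (0.75 ± 0.80; 0.44 without tumour 3). Of 20 p53 targets, 17 had a fold change above 0, beside the same 71.2%, and 0 were without overlap. Cdkn1a (p21) had 0.61, 3.68 and 4.3 against 2.05, 6.41 and 39.7 TPM (1.51 ± 1.06; 0.48 without tumour 3), while Mdm2 had 2.51 to 6.39 against 2.26, 5.49 and 5.15 TPM (-0.03 ± 0.48; 0.22 without nontumour liver 3 and 0.29 without tumour 1). Gdf15, a stress cytokine, had 2.16, 3.4 and 21.5 against 7.26, 6.38 and 37 TPM (0.96 ± 0.88; 0.2 without tumour 3).

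Fetal and tumour markers of liver gave no common pattern. Afp (alpha-fetoprotein) had 1.19, 12.6 and 5.65 TPM in nontumour liver and 0.46, 22.4 and 3.7 TPM in tumours (-0.10 ± 1.03). Gpc3, too low to test, was highest in tumour 2 at 5.79 TPM. H19 and Igf2 are neighbouring imprinted genes. H19 had 38.7, 1.69 and 14 against 1.16, 1.7 and 83.9 TPM, and Igf2 had 76.4, 4.22 and 3.82 against 1.53, 1.2 and 1.47 TPM, so that its groups did not overlap (-2.38 ± 1.26, adjusted p = 0.927; -1.07 without nontumour liver 1). Ly6d, a surface protein, had 15.5, 94 and 8.66 against 86.3, 161 and 1377 TPM (3.44 ± 1.15, adjusted p = 0.927; 2.27 without tumour 3), with nontumour liver 2 above tumour 1. Alb had 14324, 32343 and 22149 against 6758, 39153 and 16503 TPM (-0.41 ± 0.66, and 0.23 without tumour 1).

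Markers of hepatocytes and of other liver cells are given beside these lists. In bulk tissue, fewer cells of a type and less RNA per cell cannot be told apart. The 16 hepatocyte markers, all tested, had a relative median of -0.67, summing to 33800, 74100 and 48000 TPM in nontumour liver and to 26000, 83100 and 46300 TPM in tumours. Several markers of resident macrophages (Kupffer cells) were lower in all 3 tumours than in every nontumour library. Clec4f, a lectin restricted to them, had 54.9, 42.1 and 153 TPM in nontumour liver and 41.9, 10.3 and 41.3 TPM in tumours, with tumours 1 and 3 only just below nontumour liver 2 (-1.39 ± 0.60, adjusted p = 0.927; -0.75 without tumour 2). Timd4, a receptor for dying cells, had 1.61, 2.01 and 3.82 against 0.86, 0.2 and 0.47 TPM, and Cd163, a haemoglobin scavenger receptor, had 1.02, 1.53 and 3.75 against 0.31, 0.19 and 0.47 TPM. These and Vsig4 were the 4 of 22 tested macrophage genes without overlap on the tumour-low side, beside 1.75% of all genes. Timd4 and Cd163 reached 1 TPM in nontumour liver only. The filter therefore fixed in advance that they would not overlap, and they add no support to that count. General macrophage genes lay the other way in tumour 3. There Cd68, a lysosomal protein, had 95.6 TPM against 7.53 to 15.7 in nontumour liver, C1qa had 350 against 36.3 to 88.4, and the whole list summed to 1850 TPM against 261 to 868, and to 232 and 419 TPM in tumours 1 and 2.

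MHC class II genes, which antigen-presenting cells make, were far higher in tumour 3 than in the other 5 libraries. Cd74, the invariant chain, had 52.7, 134 and 397 TPM in nontumour liver, 52.2 and 127 TPM in tumours 1 and 2 and 3522 TPM in tumour 3. All 10 tested members had a fold change above 0, beside 71.2% of all genes, with a relative median of 0.50 that became -0.36 without tumour 3. Relative to all genes the list lay at -0.45, -0.41 and 2.89 in tumours 1 to 3, and 8 of the 10 lay 1 unit or more above the nontumour range in tumour 3, beside 23.1% of all genes. T and NK cell markers (12 of 31 tested) summed to 29.4, 83.3 and 86.4 TPM in nontumour liver and to 26.3, 43 and 232 TPM in tumours, and B and plasma cell markers to 158, 769 and 269 against 84.2, 184 and 217 TPM. Cholangiocyte markers (14 of 23 tested) summed to 48.3, 206 and 267 against 41.2, 91.4 and 368 TPM, and among them Pkhd1, a protein of bile duct cilia, did not overlap, at 2.41, 2.53 and 6.84 against 1.82, 0.25 and 0.4 TPM. Endothelial markers summed to 196 to 262 TPM in nontumour liver and to 177, 179 and 375 TPM in tumours, and stellate cell and matrix genes to 270 to 510 against 145, 310 and 532 TPM. Red cell genes summed to 693, 3830 and 782 against 618, 1180 and 881 TPM. The part of these cells in the results for the other lists was not tested.

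**Figure D4:**
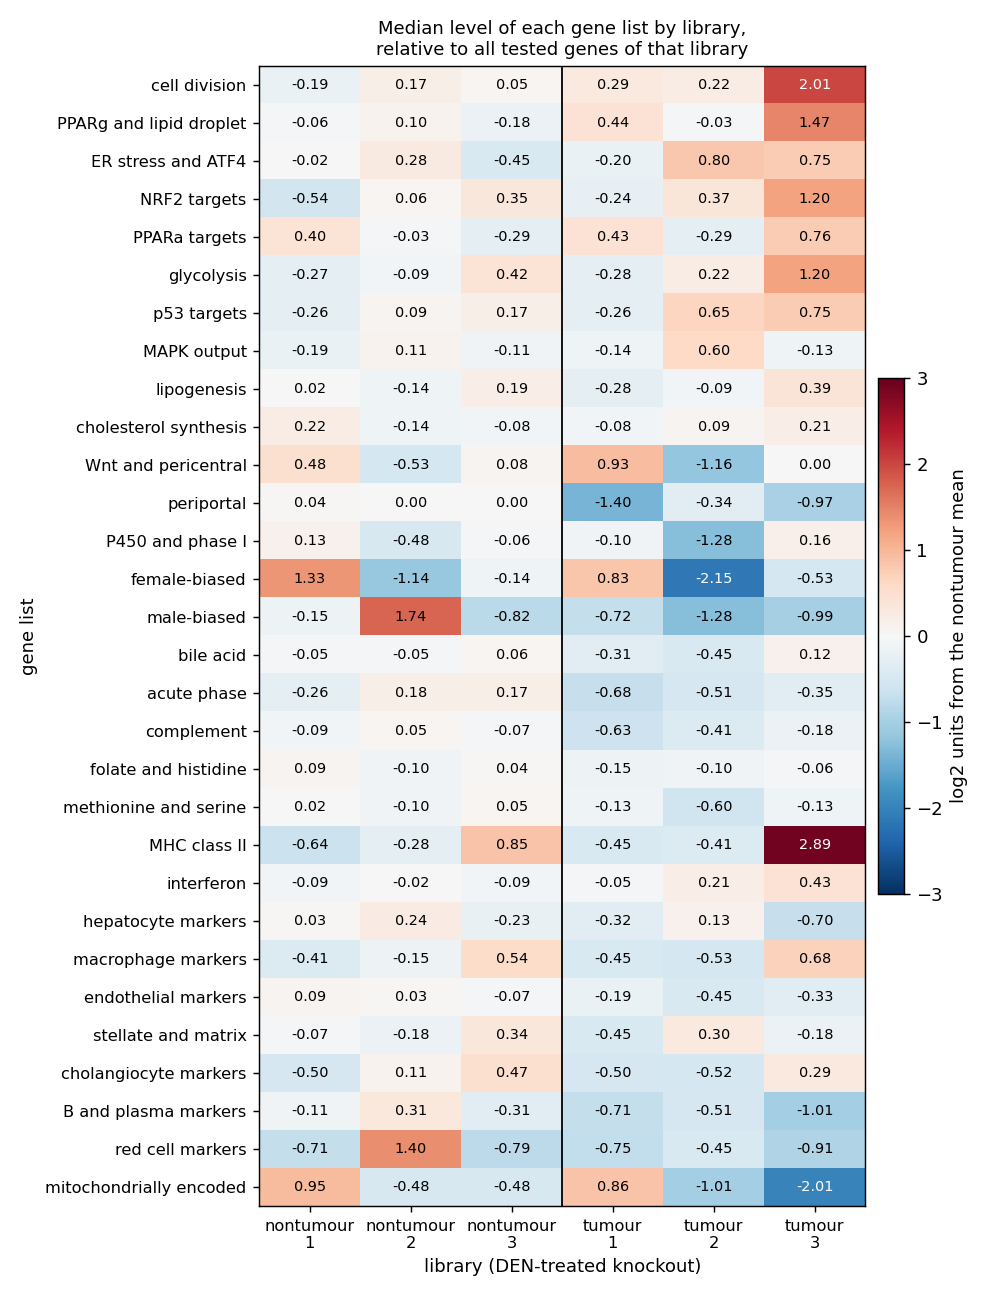
Median over the tested genes of 30 lists of the difference from the nontumour mean on log2(TPM + 1), minus the same median over all tested genes of that library (red, higher; blue, lower; the line separates nontumour from tumour libraries). Tumour 1 is low for periportal genes, tumour 2 for pericentral, P450 and female-biased genes, and tumour 3 is high for cell division, lipid droplet and MHC class II genes.

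The list nearest to Ftcd showed little. Of 26 tested folate and histidine genes, 16 had a fold change above 0, beside 71.2% of all genes, and the relative median was -0.09, at -0.15, -0.10 and -0.06 in tumours 1 to 3. Its members without overlap were Hal, on the low side, and Mthfd2, with 1.2, 1.41 and 1.75 TPM in nontumour liver and 3.47, 1.95 and 6.1 TPM in tumours (0.89 ± 0.38, adjusted p = 0.927; 0.57 without tumour 3). Mthfd1l, the mitochondrial formate-releasing enzyme, had 0.05, 1.2 and 0.46 against 0.21, 4.15 and 9.35 TPM. Mitochondrially encoded genes had a relative median of -0.78 (14 tested, all with a fold change below 0, beside 28.8% of all genes), at 0.86, -1.01 and -2.01 in tumours 1 to 3, and nuclear genes of respiration lay at -0.19.

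Each tumour was then described by itself through genes that stood alone there, that is, 5 TPM or more and at least 2 log2 units above the other 5 libraries, or that far below all of them with 5 TPM or more in each. Tumour 3 had 317 high and 34 low, tumour 2 had 25 and 42, and tumour 1 had 60 and 12. Nontumour libraries 1 to 3 had 31 and 12, 28 and 4, and 67 and 5. With median-ratio scaling, tumour 3 had 104 and 73, so the size and balance of its set depend on the scaling. Of the genes standing alone in tumour 1, only 3 high and 7 low were protein-coding. The others were largely small noncoding RNA genes such as copies of 5S rRNA, whose TPM is unreliable because they are short, and they are not described further. The nontumour libraries likewise had 4, 11 and 18 high protein-coding genes.

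In tumour 1 the protein-coding genes that stood alone on the high side included Cdon, a Hedgehog co-receptor, at 5.89 TPM against at most 0.08 TPM in the other 5, and Cacnb4, a calcium channel subunit, at 5.43 TPM against at most 0.03 TPM. Cacnb4 also reached 1.47 TPM in DEN-treated wild-type liver. On the low side it had Igfbp2, a binding protein of insulin-like growth factors, at 19.3 TPM against 102 to 284, Serpina1e, an antitrypsin copy, at 19.1 against 99.4 to 2014, Tff3, a trefoil peptide, at 1.24 against 9.06 to 371, and Cdh1 as given above. Mup21 was listed at 0. In the other 12 libraries Igfbp2 and Serpina1e stayed above tumour 1, at 64.3 and 35.2 TPM or more. Tff3 did not, with at most 1.44 TPM in untreated liver and 0.79 to 55.1 TPM in DEN-treated wild-type liver. Mup21 had at most 5.99 TPM in libraries labelled wild type, and 77.7 to 256 TPM in untreated LKO liver. Among protein-coding genes, those that stood alone in tumour 1 were more often low than high.

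In tumour 2, 28 protein-coding genes stood alone on the low side and 10 on the high side. Ces1c, a secreted esterase, had 6.59 TPM against 529 to 1237, Cyp4a10, a fatty acid ω-hydroxylase controlled by PPARα, had 1.8 TPM against 78.4 to 230, and Cyp2c67 had 2.52 TPM against 68.5 to 172. Fam25c had 21.2 TPM, against 364 to 4546 TPM. Among its high genes were Cbr3, a carbonyl reductase, at 94.4 TPM against at most 13.8, Derl3, of the degradation machinery of the endoplasmic reticulum, at 20.3 TPM against at most 2.39, and Abcc12, a transporter, at 12.4 TPM against at most 0.58. Tstd1 had 626 TPM against at most 129. Cyp2a4, a female-biased steroid 15α-hydroxylase with near-identical copies, had 3428 TPM in this XY tumour against 61.3 to 743 TPM. The female-biased list was split there, with 3 members 1 unit or more above the nontumour range and 4 below it. Lcn2, a siderophore-binding acute-phase protein, was at 709 and 597 TPM in tumours 2 and 3, against 22 to 135 in nontumour liver and 30.7 in tumour 1.

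Tumour 3 had 230 protein-coding genes standing alone on the high side. Sprr1a, a cornified-envelope protein of squamous epithelia, had 291 TPM against at most 2.84, and Tmprss4, a membrane serine protease of epithelia, had 50.9 TPM against at most 1.64. Sdcbp2 (a syntenin), Adgrv1 (a large adhesion receptor) and Spatc1 had 54.8, 133 and 19.2 TPM, against at most 0.31, 2.58 and 0.03. Immune genes stood with them, as did a muscle-type tropomyosin. Ubd, an inflammation-induced ubiquitin-like modifier, had 476 TPM against at most 17.3, Ccl8, a monocyte chemokine, had 107 TPM against at most 4.86, and Tpm2 had 175 TPM against at most 8.57. Of these 8 genes, Tpm2 reached 28.4 TPM and Ccl8 8.86 TPM in the other 12 libraries of the study, and the remaining 6 stayed at or below 5.56 TPM there.

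The libraries were last compared as differences between tumour and nontumour of the same number, as a description, since the labels do not pair them. Differences of 1 log2 unit or more were found in 575 genes higher and 396 lower for number 1, in 656 and 852 for number 2, and in 4186 and 1134 for number 3. All 3 differences had the same sign in 2618 genes upward (22.4%) and 751 downward (6.42%), and the most frequent pattern was lower in number 1 and higher in numbers 2 and 3, with 2826 genes (24.1%). All 3 differences reached 1 in 18 genes (0.154%) and -1 in 39 genes (0.333%).

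Glutathione transferases and a retinol dehydrogenase were among those that lay higher in all 3. Gstm3, which conjugates electrophiles, had 62.2, 75.8 and 325 TPM in nontumour liver and 165, 399 and 1067 TPM in tumours, differences of 1.39, 2.38 and 1.71, although its groups overlapped because nontumour liver 3 was high. Gstm4 gave 0.99, 1.37 and 2.34, and reads can be shared among the Gstm copies. Rdh9, a retinol dehydrogenase family member, gave 1.26, 1.46 and 3.64, with 25.6, 32.3 and 67.1 TPM in tumours against at most 11.1. Wild-type liver reached 46.4 TPM of Rdh9 after DEN and 32.7 TPM untreated, above tumours 1 and 2. Rdh9 overlaps Rdh16f1 on the same strand. Anxa2, a membrane-binding annexin, gave 1.23, 1.69 and 4.42, with 3.32, 14.8 and 11 TPM in nontumour liver and 9.13, 49.8 and 257 TPM in tumours. Insyn1 gave 2.29, 2.22 and 4.56, and led the genes of regular symbol with 5 TPM or more when ranked by the smallest of the 3 differences. On the low side were 3 Mup genes and Etnppl, a phospholyase of ethanolamine breakdown, with 6.09, 15.9 and 16.6 against 1.08, 0.94 and 5.49 TPM (-1.77, -3.12 and -1.44). Mup16 gave -1.54, -7.47 and -2.81 and Mup10 gave -1.62, -6.16 and -2.46. Sult2a7, a sulfotransferase high in the XX libraries, gave -2.13, -1.56 and -1.64, from 153, 2.4 and 2.89 to 34, 0.15 and 0.25 TPM.

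**Figure D5:**
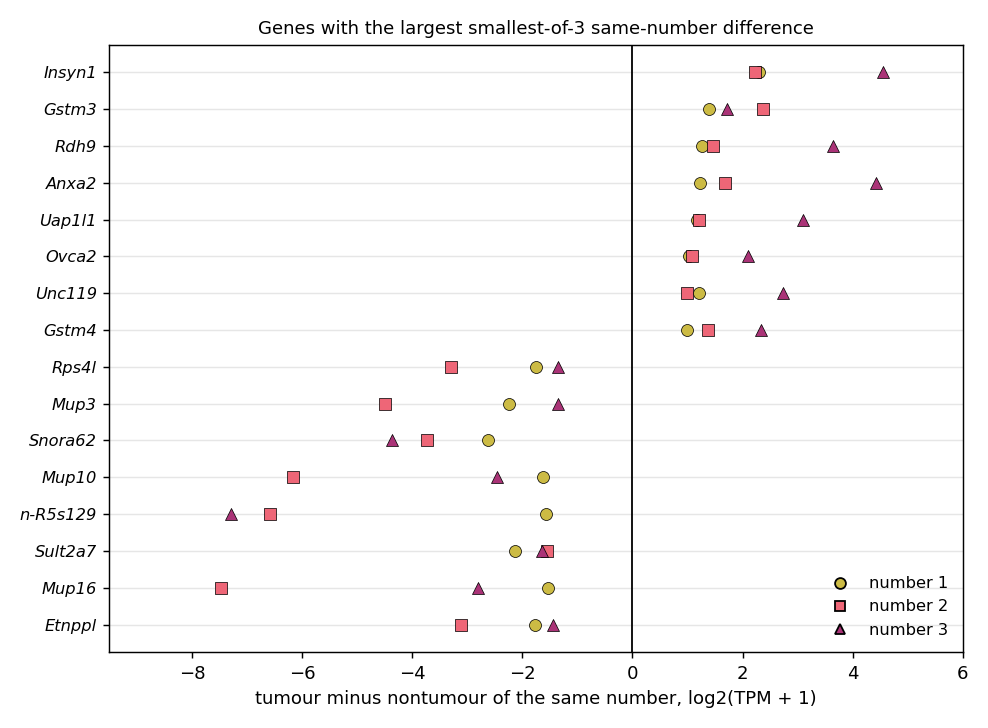
Tumour minus nontumour difference of the same replicate number on log2(TPM + 1) for the 8 genes of regular symbol on each side that led by the smallest of their 3 differences (circle, number 1; square, number 2; triangle, number 3). All 3 points of each gene lie on the same side of 0, number 3 is farthest right for 7 of the 8 higher genes, and number 2 is farthest left for Mup10 and Mup16, at -6.16 and -7.47.

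The 43 genes that limma called without tumour 1 rest on tumours 2 and 3 alone, and the examples here were chosen after their values were seen. Fabp4 gave 4.02 (adjusted p = 0.0229), Scd2, a stearoyl-CoA desaturase, gave 3.03 (adjusted p = 0.0229) with 38.3 and 67.1 TPM in tumours 2 and 3 against 0.82 TPM in tumour 1 and 2.27 to 11 TPM in nontumour liver. Casp12, a caspase of the endoplasmic reticulum, gave 2.39 (adjusted p = 0.0214), and Mthfd1l gave 2.28 (adjusted p = 0.0333). Nid1 (nidogen, a basement membrane protein) gave 2.69 (adjusted p = 0.0419) and Itga6, an integrin subunit of laminin receptors, gave 1.96 (adjusted p = 0.0386). On the low side, Cyp2c54 gave -4.32 (adjusted p = 0.0419) and Anks1b -5.55 (adjusted p = 0.0491). With all 3 tumours in the fit, none of these was called (adjusted p of 0.927 for Fabp4, Cyp2c54 and Anks1b).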

How the data were processed

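Liver RNA of 18 mouse samples was sequenced. Per the submitters' processing notes, fastp, HISAT and RSEM were used with mm10 (versions, counting strand and annotation not given in the sources used here), and the authors deposited TPM values per gene, which sum to 1000000 per library. Library preparation used a TruSeq RNA kit, per the labels' protocols.

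From these TPM values, log2(TPM + 1) was fitted with limma 3.58.1 (R 4.3.3, intensity trend) over all 18 libraries in 5 groups, without covariates, on genes with 1 TPM or more in 3 or more of the 6 libraries. Tests were 2-sided, with Benjamini-Hochberg adjustment over 11706 genes and calls at an adjusted p under 0.05. SE is limma's, and single values were tested by exact permutation. Scripts ran in Python 3.11.15 and were tested on simulated data. Coordinates are from GENCODE M21 (mm10) and sequences from RefSeq (GRCm38.p6).

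Named genes were the 10 of smallest p per direction (regular symbol, no overlap, and a higher group that averages at least 5 TPM; none was called), 20 preset genes (1 of them is not reported here), up to 4 genes of smallest p per list, up to 8 high and 5 low genes standing alone per library, and 8 genes per direction by the smallest same-number difference. The comparison, the 43 lists (1219 of 1229 entries matched) and the rules were chosen with earlier results of these data known. The alternatives changed the pseudocount, filter, scaling, covariates, block and libraries used. Close gene copies (Mup, Cyp2c, Gstm, Ces, Sult2a), genes overlapping on either strand and small RNAs have uncertain values.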

Additional observations from a re-analysis of the deposited data

How the results depend on the processing

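Limma called 0 genes with a pseudocount of 0.1, a filter of 5 TPM, the mitochondrial share as covariate or no intensity trend. It called 8 (5 higher, 3 lower) with no filter on low values, 1 each with only the 6 libraries, median-ratio scaling, quantile normalization or TPM without mitochondrial genes, 3 with a term for XX or XY status, and 2 without the 3 wild-type libraries low in Ftcd. With no filter, Cenpe, a mitotic kinesin, was called at 0.66 (adjusted p = 0.00316, with at most 0.11 TPM in nontumour liver and 0.51, 0.67 and 1.03 TPM in tumours). Leaving out single libraries gave 0 to 43 calls, 43 without tumour 1. The replicate block over the 6 libraries gave 3 calls, all lower: Gm3788, Gm23638 and MSTRG.33188, listed at 0 in all 3 tumours. All 3 passed the filter through nontumour liver only, so it was fixed in advance that they would be lower in tumours. Same-numbered deviations correlated at 0.36, 0.32 and -0.05, and tumour 3 correlated best with nontumour liver 2 (0.22), so the numbers were not taken as pairs. Genes without overlap numbered 532 higher and 390 lower with median-ratio scaling (196 and 205 as deposited), and 251 to 4406 higher and 304 to 949 lower without single libraries, most without tumour 1, where 2 libraries face 3; these counts were added after seeing the data. A gap of 1 gave 90, 91 and 183 genes standing alone in nontumour libraries 1 to 3 and 232, 208 and 1976 in tumours 1 to 3, and median-ratio scaling, also added later, gave 177 in tumour 3. A pseudocount of 0.1 gave 64 and 78 genes past 1 in all same-number differences. The sign turned in 6 of 1163 values of 66 named genes, in 5 genes. These turned without single libraries, with ranges of -1.94 to 0.83 for Glul, -1.68 to 1.0 for Cyp2e1, -0.31 to 0.29 for Mdm2, -1.04 to 0.23 for Alb and -0.29 to 1.64 for Fasn. The other values kept their direction, 18 of them with a call gained. The causes were not tested. Of 772 list medians, 28 moved by more than the spread between replicates. With 3 libraries a group, unknown depth and tumours that differ from each other, a value that misses the threshold does not show equal levels.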
